A study of Mus musculus with 8 samples.

Results

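A set of 722 genomic sites was examined for KLF1, the erythroid Krüppel-like zinc finger transcription factor. At these sites its wild type form had a high read count and its E339K mutant form a lower one. The sites were chosen by 2 deposited values per site, the wild type and the mutant concentration, each of which is the log2 of the mean normalized read count over the site in chromatin immunoprecipitation followed by sequencing (ChIP-seq). A site was taken when its wild type concentration was at least 4 and its mutant concentration was at least 2 and under 4, that is, at least 16 normalized reads for the wild type protein and from 4 to under 16 for the mutant. This gave 722 of the 5551 sites of the table (13%), and 30.9% of the 2337 sites with a wild type concentration of at least 4. The other wild type sites were 883 sites with a mutant concentration of at least 4, called shared sites here, and 732 sites with a mutant concentration under 2, called lost sites here. Binding is used below as a name for these read counts. No background level was given per site, so whether the mutant values of the 722 sites stood above non-specific signal was not tested.

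KLF1 drives the last steps of red cell formation by binding GC-rich CACCC-box elements in the promoters and enhancers of globin, heme synthesis, membrane and cell cycle genes. It contacts DNA through zinc fingers, each of which reads about a triplet of bases on the G-rich strand, and the substitution of glutamate by lysine in the second finger is the mouse counterpart of the dominant human change that causes congenital dyserythropoietic anemia type IV. The base at the middle of the motif, at the fifth position, lies in the triplet that the second finger reads. Wild type KLF1 is known to bind motifs with a pyrimidine (C or T) there.

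Both proteins had been expressed in K1 cells, an immortalized mouse erythroid line that lacks Klf1, so that no endogenous wild type KLF1 was present. Each was fused to a part of the estrogen receptor that binds its ligand (KLF1-ER and KLF1-E339K-ER), was held in the cytoplasm until 4-hydroxytamoxifen (4-OHT) was added, and was precipitated with an antibody against the receptor domain. The ChIP sample of the series came from K1-E339K-ER cells of 1 clone given 200 nM 4-OHT for 3 h, with 3 replicates pooled before sequencing and 1 input library beside it, and the wild type libraries belong to other work of the same authors and are not among the 8 samples here. The series also holds newly made RNA, labelled by the sample records with 500 µM 4-thiouridine (4sU) for 30 min, from 3 K1-E339K-ER samples given 200 nM 4-OHT, 2 K1 samples given 4-OHT and 1 K1 sample given ethanol. The authors' paper gives a longer labelling time and another unit for the 4sU dose. The site table holds 1 value per protein and site with no value per library, so no difference in binding between the proteins could be set against a spread between replicates, and what follows is a description. As the wild type libraries belong to other work, a difference between the proteins cannot be told apart from a difference between experiments. The 95% Wilson intervals given with shares of sites cover counting error over sites only, and sites are not replicates of a condition. In the 4sU-RNA table, which lists 11364 genes with the authors' mean log2 CPM (counts scaled to a fixed total per library) over all libraries, all 8 erythroid marker genes checked were listed, from Nfe2 at 5.37 to Zfpm1 at 10.80, with Gata1 at 9.79. Of the markers of other blood cells, Pf4 and Cd3e were not listed, Sfpi1 and Mpo were listed at 0.39 and 1.84, and Itga2b, a megakaryocyte gene, was listed at 5.30.

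The DNA under 12 of the 722 sites is shown first, because the base at the fifth position of the KLF motif is what the mutation is known to act on. The motif was searched as 9 letters, namely any base, GGG, any base at position 5, G, G or T at position 7, and GG, on both strands and within 50 bp of the site midpoint. The genome build was mm9, and all sequences are the forward strand of the reference, 5′ to 3′, with the motif matches in capitals (a match on the reverse strand reads as its complement, starting with CC). The sites were taken from those closest to genes of erythroid lists and from those with the highest wild type values, spread over C, T and A at position 5, and none overlapped an annotated untranslated region (UTR). No site with G at position 5, which 47 of the 722 sites carried, was among those that could be shown under this rule. Sites whose matches carried only C at position 5 were those of Atg4d (chr9:21069530-21069630, intergenic), an autophagy protease gene, Slc25a38 (chr9:120019902-120020002, in an intron of the gene), a mitochondrial carrier needed for heme synthesis, Alas2 (chrX:146984289-146984389, in an intron of Alas2 that overlaps the annotated gene Apex2), the erythroid first enzyme of heme synthesis, and Snx22 (chr9:65917600-65917700, intergenic), a sorting nexin gene.
Atg4d: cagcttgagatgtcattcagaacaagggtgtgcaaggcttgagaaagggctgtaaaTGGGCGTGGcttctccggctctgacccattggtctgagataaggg
Slc25a38: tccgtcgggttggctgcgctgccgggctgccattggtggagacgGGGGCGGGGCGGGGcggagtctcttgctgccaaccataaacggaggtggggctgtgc
Alas2: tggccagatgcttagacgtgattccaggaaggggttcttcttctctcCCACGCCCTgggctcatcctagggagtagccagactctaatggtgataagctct
Snx22: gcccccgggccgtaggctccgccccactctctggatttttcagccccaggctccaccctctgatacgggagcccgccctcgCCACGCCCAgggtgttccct

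Matches with only T at position 5 lay in an intron of Fam132b (chr1:93263552-93263652), which encodes the iron hormone erythroferrone, near Rb1 (chr14:73725933-73726033, intergenic), the retinoblastoma cell cycle regulator, and near Hbb-y (chr7:111007717-111007817, intergenic), an embryonic beta-like globin gene. The site near Cd55 (chr1:132359322-132359422, in an intron of the annotated gene Gm16083), a complement regulator on the red cell surface, held a match with C and another with T.
Fam132b: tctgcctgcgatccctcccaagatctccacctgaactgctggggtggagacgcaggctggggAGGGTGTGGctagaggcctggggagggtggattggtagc
Rb1: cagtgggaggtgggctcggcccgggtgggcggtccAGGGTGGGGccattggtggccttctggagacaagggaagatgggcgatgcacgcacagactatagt
Hbb-y: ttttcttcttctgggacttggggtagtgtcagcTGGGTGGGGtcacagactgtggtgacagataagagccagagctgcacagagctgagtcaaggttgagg
Cd55: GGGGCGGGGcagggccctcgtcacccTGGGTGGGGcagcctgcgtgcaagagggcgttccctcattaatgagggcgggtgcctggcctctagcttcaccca

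Matches with A at position 5 lay in introns of Epb4.9 (chr14:71026872-71026972), which encodes dematin of the membrane skeleton, of Mef2d (chr3:87950071-87950171), a transcription factor gene, and of Btg2 (chr1:135974837-135974937), an antiproliferative gene, where a match with C overlapped the match with A, and at an intergenic site whose closest transcription start site (TSS) was that of the transcription factor gene Klf13 (chr7:71119156-71119256).
Epb4.9: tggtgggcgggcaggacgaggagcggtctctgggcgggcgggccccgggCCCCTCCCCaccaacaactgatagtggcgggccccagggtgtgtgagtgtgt
Mef2d: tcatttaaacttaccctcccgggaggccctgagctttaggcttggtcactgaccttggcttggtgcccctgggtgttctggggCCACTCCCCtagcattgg
Btg2: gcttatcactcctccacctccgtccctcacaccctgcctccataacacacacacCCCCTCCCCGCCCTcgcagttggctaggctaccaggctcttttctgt
Klf13: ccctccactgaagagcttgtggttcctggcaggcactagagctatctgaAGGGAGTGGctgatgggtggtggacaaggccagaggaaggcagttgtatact

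The concentrations of these sites, which chose them, were as follows. Alas2, with C, had a wild type concentration of 5.02 and a mutant concentration of 3.94, a difference of 1.08 on the log2 scale. Atg4d, with the same 8 letters GGGCGTGG, had 5.69 and 2.29, and Snx22, again with GGGCGTGG, had 7.75 and 3.20. The fourth site with C, Slc25a38, had 5.12 and 2.47. Among the sites with T alone, Fam132b had 6.07 for the wild type and 2.05 for the mutant, Rb1 had 5.57 and 2.16, and Hbb-y had 5.45 and 2.87. Among the sites with A, Epb4.9 had 7.0 and 3.75, Mef2d had 7.55 and 2.91, Klf13 had 5.88 and 2.73, and Btg2, which held C as well, had 5.48 and 2.05. Cd55, with C and T, had 6.29 and 3.82.

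Over all 722 sites, the wild type concentration ran from 4.16 to 8.31 with a median of 5.38, or 41.6 normalized reads. The mutant concentration ran from 2.03 to 3.99 with a median of 3.01, or 8.06 normalized reads. The median difference was 2.42 on the log2 scale, a 5.33-fold lower mutant value, with the middle 50% of sites between 1.88 and 3.05. A wild type value at least 2-fold above the mutant value (a log2 difference of 1) was found at 694 sites and one at least 4-fold above it (a log2 difference of 2) at 513 sites. Over the 5551 sites of the table the shares were 28.7% and 23.3%, and since the same values chose the 722 sites these counts only describe them.

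**Figure D1:**
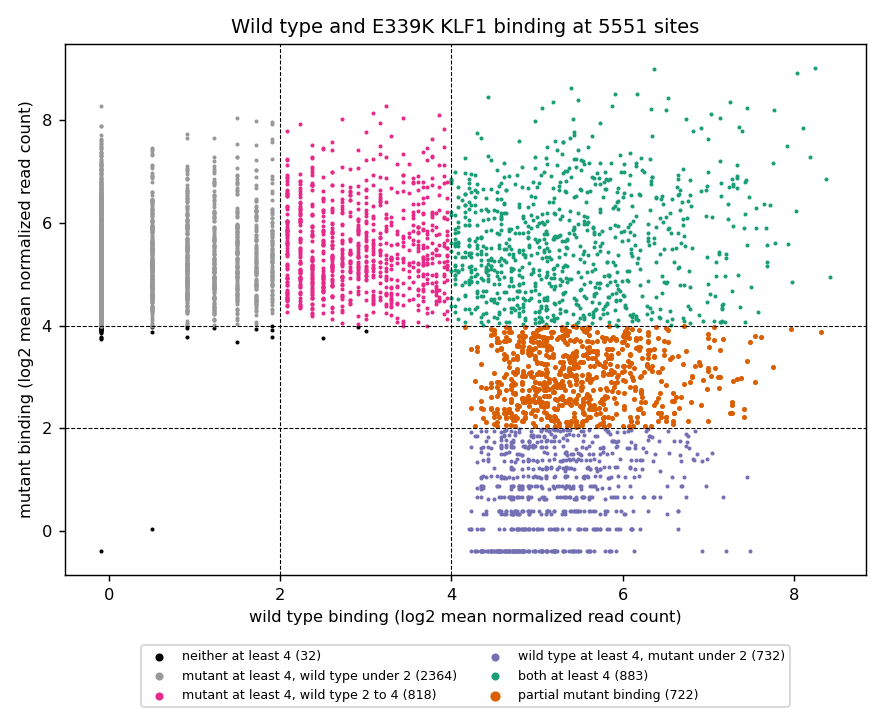
Each point is 1 of the 5551 sites, with the wild type concentration on the horizontal and the E339K mutant concentration on the vertical axis, both log2 mean normalized read counts, and dashed lines at the limits of 2 and 4. The 722 sites with partial mutant binding fill the band between mutant values of 2 and 4 at the right, with no gap to the shared sites above and the lost sites below.

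The highest wild type values among the 722 sites were those of an intergenic site whose closest TSS was 1700019O17Rik (wild type 8.31, mutant 3.88), an intergenic site closest to Azin1 (7.97 and 3.94), the Snx22 site (7.75 and 3.20), a site 156 bp from the TSS of Ctnnal1 (7.62 and 3.77) and the Mef2d site (7.55 and 2.91). The widest gaps were at sites within 216 bp of the TSS of Zfp28 (7.41 and 2.22, a 36.5-fold difference), Rpl31 (7.42 and 2.38), Spata2l (7.27 and 2.31) and Tmc6 (7.25 and 2.30), and at a site 10819 bp from that of 1110001J03Rik (7.0 and 2.14). Of these 5, the Zfp28, Rpl31 and Spata2l sites held a motif match with C at position 5, the 1110001J03Rik site one with T, and the Tmc6 site none. The narrowest gap was at a site within the coding sequence of Clgn whose closest TSS was that of Scoc (4.16 and 3.98, 1.13-fold), followed by sites closest to Igsf3 (4.46 and 3.94), Sla2 (4.5 and 3.91), Epas1 (4.5 and 3.89) and Fras1 (4.46 and 3.82). The Igsf3, Sla2 and Epas1 sites each held the word GGGAGGGG, with A at position 5, and the Epas1 site held GGGCGGGG as well. These few sites at the ends of the range do not stand for the set. Over the 722 sites, the median difference was 2.53 with A at position 5, 2.47 with C, 2.36 with T and 2.31 with G.

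The mutant limits cut through a continuous range of values. Just inside the lower mutant limit, the site closest to Tspan17 had 6.08 for the wild type and 2.03 for the mutant, and just outside it the site closest to Fbxl2 had 6.29 and 1.99. At the upper mutant limit, a site closest to Lyl1 lay just inside at 6.72 and 3.99, and the site closest to Crk just outside at 5.93 and 4.0. On the wild type side the Scoc site was the last inside at 4.16, and the next site outside with a mutant value between the limits, closest to Ttc7b, had a wild type value of 3.0 and a mutant value of 3.9. The low values of the table fell on steps. All 32 distinct wild type values under 4 were whole multiples of 0.47 normalized reads within 0.006 on the log2 scale, from 2 steps at the lowest value to 33, so that the 722 sites corresponded to 38 steps at the lowest, 89 at the median and 676 at the highest wild type value. The mutant values under 2 were described by sums of 2 unequal steps of 0.27 and 0.498 normalized reads at 41 of 43 distinct values, although the labels list 1 mutant ChIP library. If a step is 1 read and no input reads were subtracted, the lowest mutant value at the 722 sites rested on 8 to 16 reads and the median on 16 to 30. Under the same conditions, which were not tested, the counting error (SE) was at most 0.50 on the log2 scale at the lowest mutant value. It was at most 0.36 at the median and 0.26 at the highest mutant value, against 0.23 to 0.06 for the wild type values. A single site near a mutant limit could therefore fall on either side of it by counting error alone.

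Sites with partial mutant binding resembled the lost sites in the fifth base of their motif. A match with a pyrimidine at position 5 lay within 50 bp of the midpoint at 428 of 722 sites (59.3%, interval 55.7 to 62.8), against 64.5% (60.9 to 67.9) of lost sites, 38.1% (34.9 to 41.3) of shared sites and 35.3% of all 5551 sites. A match with a purine (A or G) lay at 130 sites (18%, 15.4 to 21), against 12.7% (10.5 to 15.3) of lost, 29.4% (26.5 to 32.5) of shared and 35.5% of all sites. Within 50 bp, the 722 sites thus lay nearer to the lost than to the shared sites on both counts, with intervals that did not overlap those of the shared sites. Their interval overlapped that of the lost sites for the pyrimidine match, and lay directly above it for the purine match. Over the whole site the pyrimidine shares were 78.5% of the 722, 77.6% of lost and 72.5% of shared sites. Only 32 of the 5551 sites had neither value at 4 or more. The 722 and the lost sites thus reached 4 for the wild type protein only, and the shared sites for both. The part of this choice in the motif shares was not tested.

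The 722 sites differed from the shared sites at each of the 4 bases, with no overlap of intervals. C at position 5 was present at 40.9% of the 722 sites (43.7% of lost, 20.7% of shared) and T at 28.1% (28.7% and 21.2%). A was present at 12.5% (10.1% of lost, 19.5% of shared). G was present at 47 sites or 6.51% (4.93 to 8.55), against 2.6% (1.67 to 4.02) of lost and 12% (10 to 14.3) of shared sites, so that its share lay between those of the lost and shared sites, apart from both. The most frequent words were GGGCGGGG, found at 227 sites, GGGTGGGG at 146, GGGCGTGG at 98, GGGAGGGG at 73, GGGTGTGG at 68 and GGGGGTGG at 45, and runs of G that matched as GGGGGGGG were found at 2 sites, against 536 of the 5551 sites.

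**Figure D2:**
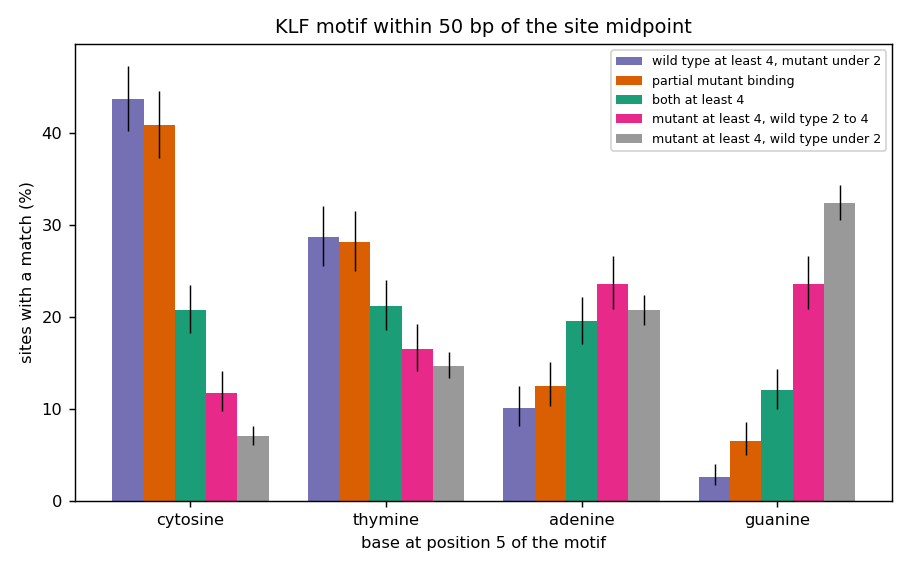
Bars give the percentage of sites in each class with a motif match carrying the named base at position 5 within 50 bp of the midpoint, and lines the 95% Wilson intervals over sites. For cytosine and thymine the sites with partial mutant binding (orange, 40.9% and 28.1%) stand beside the lost sites (purple), and for guanine (6.51%) between the lost and the shared sites (green).

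A pyrimidine match without any purine match was present at 348 sites, a purine match without a pyrimidine match at 50, both at 80 and neither at 244 (33.8%; 31.8% of lost and 47.7% of shared sites). The rule held the mutant values of the 722 sites between 2 and 4, so their medians by motif content (2.86 to 3.24) could differ little. Over all wild type sites, which the rule did not bound in this way, the median mutant concentration was 2.22 with C alone at position 5, 2.78 with T alone, 4.5 with A alone and 5.18 with G alone. More than 1 pyrimidine match was found at 179 sites (24.8%), close to the 26.5% of lost and above the 10.5% of shared sites. Seen from the motif, 36.2% of the 527 wild type sites with C alone at position 5 were among the 722 and 45.5% were lost. Of the 315 with T alone 33% were among the 722 and 37.8% were lost. Of the 156 with A alone 25% and 16.7%, and of the 37 with G alone 24.3% and 2.7%, were in these classes, so that 73% of the sites with G alone were shared.

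Pyrimidine matches were centred on the sites. Their median distance from the midpoint was 13 bp, and their density within 50 bp of it was 9.81 per kb against 1.15 per kb in flanks 200 to 300 bp away. Purine matches were denser in the centre as well, with 2.33 per kb against 1.24 per kb in the flanks. In the lost sites the same densities were 11.4 and 0.839 per kb for pyrimidine matches and 1.42 and 0.845 per kb for purine matches, and in the shared sites 5.20 and 1.85 per kb and 4.97 and 1.92 per kb. The sites were called from ChIP-seq reads of these proteins, so their midpoints are not independent of the motif that the wild type protein binds. Shared sites were wider, with a median of 397 bp against 326 bp at the 722 and 322 bp at lost sites. The part of width in their lower central pyrimidine density was not tested.

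**Figure D3:**
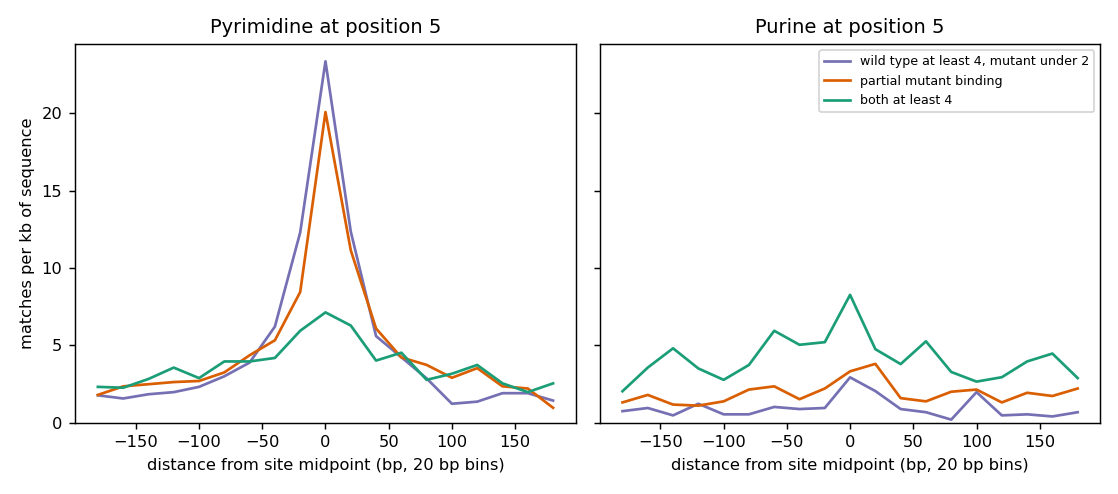
Lines give motif matches per kb of sequence in 20 bp bins against distance from the site midpoint, for matches with a pyrimidine (left) or a purine (right) at position 5. The sites with partial mutant binding (orange) show a narrow central peak of pyrimidine matches beside that of the lost sites (purple), and a low purine line between the lost and the shared sites (green).

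At position 7, where wild type KLF1 motifs carry G or T, the 722 sites were unlike the lost sites beyond 1 kb from a TSS, while within 1 kb the intervals overlapped. Over all distances, T was found in 203 of 715 pyrimidine matches (28.4%, 25.2 to 31.8), against 359 of 843 (42.6%, 39.3 to 46) in lost and 105 of 464 (22.6%, 19.1 to 26.7) in shared sites. Counted by site, 156 of the 428 sites with a pyrimidine match (36.4%) had one with T at position 7, against 57.4% of such lost and 25.3% of such shared sites. The gap to the lost sites was seen with C at position 5 (26.9% against 37.2%) and with T at position 5 (30.7% against 52.1%). Within 1 kb of a TSS it was narrower for both, at 29.6% against 32.6% with C and 28% against 34.9% with T. The classes differ in how many sites lie at promoters, so the shares were also taken apart by distance to the closest TSS. Beyond 1 kb from a TSS, T at position 7 made up 27.5% (23.1 to 32.5) of pyrimidine matches at the 722 sites, 46.2% (42.3 to 50.1) at lost and 29.2% (23.7 to 35.4) at shared sites. Within 1 kb the shares were 29.2% (24.8 to 34), 33% (27.3 to 39.4) and 16.4% (12.2 to 21.6), so that the 722 sites then stood nearer to the lost sites, with overlapping intervals. Matches within a site overlap and share sequence, which the intervals do not take into account. The position 7 comparison was chosen after the values were seen.

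All 2337 wild type sites were also binned by mutant concentration. The share with a pyrimidine match was 65.9% under 1, 62.7% from 1 to 2, 64.5% from 2 to 3 and 54.1% from 3 to 4. It was 47.7% from 4 to 5, 33.9% from 5 to 6 and 32.2% from 6 up. The share with a purine match was 14%, 11.1%, 18.4%, 17.6%, 29.1%, 28% and 31.2% in the same bins. Within the 722 sites the pyrimidine share was thus lower in the upper bin (197 of 364) than in the lower bin (231 of 358), while the purine shares of the bins differed by less than their intervals. The share of T at position 7 was 46.4% under 1, 37.9% from 1 to 2, 27% from 2 to 3 and 30% from 3 to 4. Above these bins it was 27.7% from 4 to 5, 15.9% from 5 to 6 and 21% from 6 up. The median wild type concentration of these bins lay between 4.97 and 5.48, with the lowest value in the bin under 1.

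**Figure D4:**
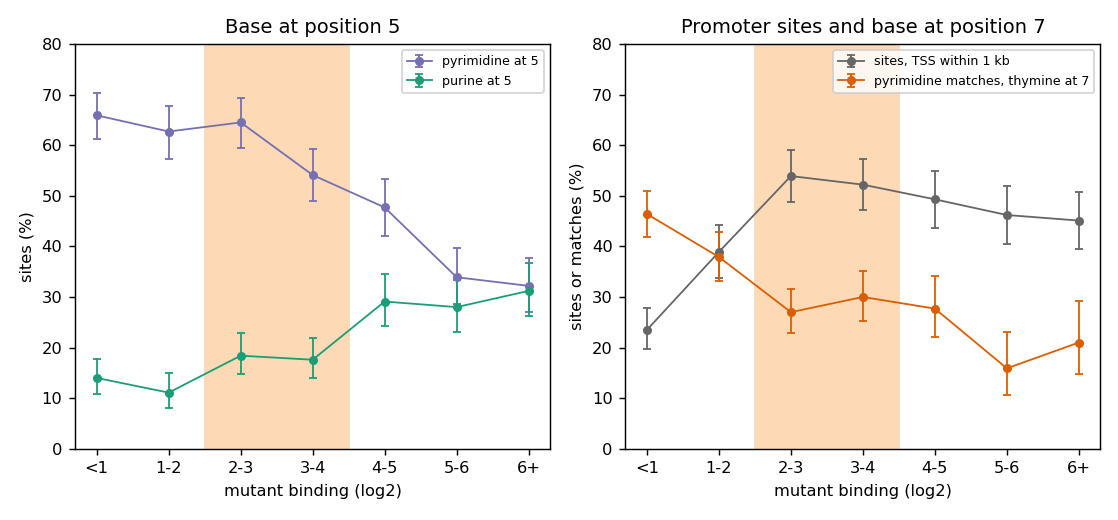
The 2337 sites with a wild type concentration of at least 4 are binned by mutant concentration, with the 722 sites with partial mutant binding in the shaded bins and 95% Wilson intervals as error bars. The pyrimidine share (left, purple) is 65.9% in the first bin and 32.2% in the last, and on the right the share of promoter sites (grey) is highest in the shaded bins while thymine at position 7 (orange) is at its highest, 46.4%, in the first bin.

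Sites with partial mutant binding lay at promoters more often than lost sites did. The closest TSS, as the authors' table gives it, was within 1 kb at 383 sites (53%, 49.4 to 56.7), against 30.3% (27.1 to 33.8) of lost, 46.9% (43.6 to 50.2) of shared and 39.5% of all sites. The interval did not overlap that of the lost sites and overlapped that of the shared sites at its lower end. The median distance was 737 bp, against 7246 bp at lost and 1216 bp at shared sites. By GENCODE annotation of mm9, the midpoint lay in an intron at 296 sites, between genes at 302, in a UTR at 83, in a noncoding exon at 22 and in coding sequence at 19. The promoter share was 57.5% at sites with pyrimidine matches only, 46% at those with purine matches only and 51.6% at those with no match. Base composition moved with the class: the median GC content within 150 bp of the midpoint was 61.5%, against 54.2% at lost and 62.8% at shared sites, and the median number of CpG dinucleotides was 15, 7 and 13. The part of base composition in the motif shares was not tested. Within 1 kb of a TSS, pyrimidine matches were found at 61.1% of the 722 sites, 61.3% of lost and 42.5% of shared sites, and beyond 1 kb at 57.2%, 65.9% and 34.1%.

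GATA1 is the erythroid zinc finger factor that occupies many KLF1-bound enhancers. Its motif, searched as AGATAA or TGATAA on either strand within 150 bp of the midpoint, was found at 160 of the 722 sites (22.2%, 19.3 to 25.3), 28% (24.9 to 31.4) of lost, 34.3% (31.3 to 37.5) of shared and 29.3% of all sites. Beyond 1 kb from a TSS the shares were 35.1% (30.2 to 40.3), 36.1% (32 to 40.3) and 50.7% (46.2 to 55.2), so that the intervals of the 722 and the lost sites overlapped and that of the shared sites lay higher. Within 1 kb of a TSS they were 10.7%, 9.46% and 15.7%. A word match is not evidence that GATA1 was bound.

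The 722 sites had 672 closest genes, 632 of them with 1 such site. For the genes of 10 lists of erythroid function (213 genes), 38 of their 276 sites were among the 722 (13.8%), near the 13% of all sites, and these 38 sites belonged to 31 genes. The share was 10 of 41 sites for membrane and skeleton genes, 5 of 16 for heme synthesis, 8 of 48 for the cell cycle and 6 of 90 for erythroid and blood transcription factors, where 28 sites were shared and 32 had a mutant value of at least 4 with a wild type value under 2. No site of the 21 closest to signalling and survival genes was among the 722, which by an approximate upper limit, not a Wilson interval, allows a share of up to 14.3%.

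The values that follow are of sites among the 722 only, and 20 of the 31 list genes were also closest to other sites. Some of these other sites had higher mutant values, as at Abcb10 (wild type 6.02, mutant 7.13) and Piezo1 (6.82 and 7.77). Lost sites were found at 12 of the 31 genes. For heme synthesis, the sites among the 722 included 2 at Slc25a38 (wild type 5.12 and 4.86, mutant 2.47 and 2.30). There was 1 each at the TSS of Abcb10, a mitochondrial transporter gene (4.91 and 2.43), and in the intron of Alas2 (5.02 and 3.94). The Alas2 site had the smallest difference of these 4. Of the 8 sites closest to globin genes, 1 was among the 722, 6046 bp from the TSS of Hbb-y (5.45 and 2.87). Of the 9 closest to iron genes, 1 was among the 722, that of Fam132b. Its mutant value of 2.05 lay at the lower limit (wild type 6.07, a 16.2-fold difference). These shares, 12.5% and 11.1%, were near the 13% of all sites.

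Among the list sites of the 722, the membrane and skeleton genes had the strongest wild type binding, at the promoter of Epb4.9 (7.0 and 3.75). Ank1, the gene of the ankyrin that ties the spectrin skeleton to the membrane, had a site 4089 bp from its TSS (6.41 and 3.75) and another 23146 bp away (5.02 and 3.67). The adducin genes Add1 (6.36 and 3.39) and Add2 (5.35 and 3.81) were bound within 55 bp of the TSS. Gypc, the glycophorin C gene, had 6.14 and 2.75, and Tmod1, the tropomodulin gene, had 5.32 and 3.03. Rhd, an Rh blood group gene, had 5.18 and 2.71, and Piezo1, a mechanosensitive channel gene, had 5.23 and 3.74. Stom, the stomatin gene, had the narrowest gap of the list at 4.3 and 3.59. Among the blood group carriers, Cd55 had 6.29 and 3.82, Bsg (basigin) 5.08 and 3.78 and Slc29a1, a nucleoside transporter gene, 4.61 and 3.35.

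Of the transcription factor genes, Lyl1 was closest to a pair of sites in an annotated UTR of Nfix (6.72 and 3.99 at one, 5.54 and 2.51 at the other), Gfi1b had a site in its intron (5.54 and 3.94), and Ikzf1, the Ikaros gene, had 2 sites (4.86 and 3.98, 4.79 and 3.70). The cell cycle genes were led by Mxd3, a Max-binding repressor gene (6.29 and 3.88), Rb1 (5.57 and 2.16) and Btg2. Cdkn1a, the p21 inhibitor gene, had a site at 4.84 and 3.05, and Ccnd3, the cyclin D3 gene, one at 4.72 and 3.34. Outside the 722 sites, Cdkn1a also had a site at 1.91 and 6.91. Ccnd3 had a shared site at 7.33 and 6.91 and a lost site at 6.1 and 0.05, among others. In the remaining lists, Atg4d (5.69 and 2.29) and Ube2l6 (4.5 and 3.07), a ubiquitin-conjugating enzyme gene, stood for maturation, and Gpx1, the glutathione peroxidase gene (6.0 and 3.21), and Gapdh (5.46 and 3.73) for metabolism.

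**Figure D5:**
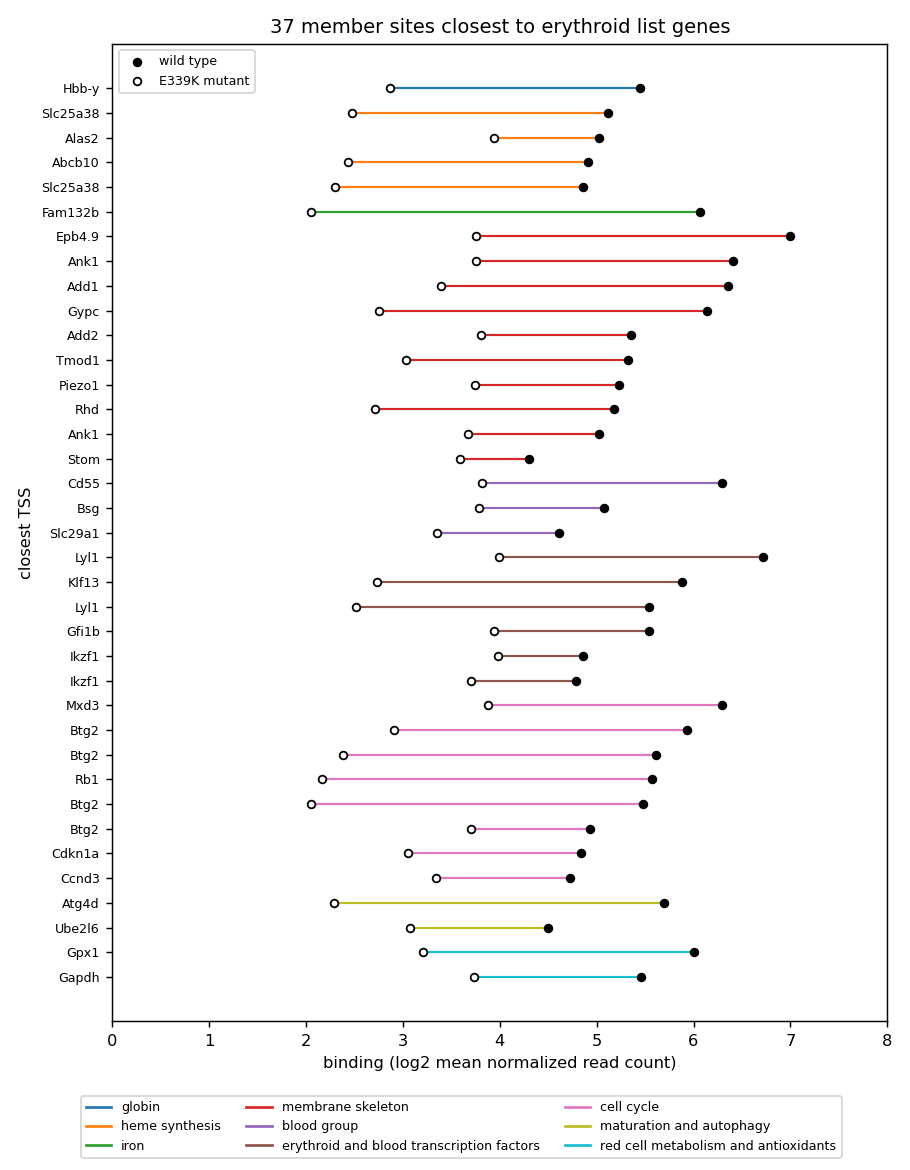
For each of 37 sites closest to a gene of the erythroid lists, a line joins the mutant (open) and the wild type (filled) concentration in log2 mean normalized reads, colored by list, with genes named at the left. The gaps run from 0.71 at Stom to 4.02 at Fam132b.

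Some of the sites lay beside other kinds of site of the same gene. Over all 672 closest genes, 377 (56.1%) were closest to no other kind of site and 295 (43.9%) were. Of the 31 list genes, 20 were also the closest gene of another site, 13 of a shared site, 12 of a lost site and 13 of a site with a mutant value of at least 4 and a wild type value under 2. Within 10 kb of 289 of the 722 sites (40%) lay another site of the table, against 52% of shared and 30.7% of lost sites.

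Btg2 was the clearest case among the lists, with 4 of the 722 sites. From low to high coordinates on chromosome 1, these lay 17874, 5887, 845 and 193 bp from its TSS, with wild type values of 5.61, 5.93, 5.48 and 4.93 and mutant values of 2.38, 2.91, 2.05 and 3.70. Between the first and the second of them lay a site bound by the mutant at 6.96 with a wild type value of 0.5, and a lost site with a wild type value of 5.48 and a mutant value of 0.39. Between the second and the third lay another mutant site (wild type 0.5, mutant 4.96) in the coding sequence of Btg2, and 13978 bp from the TSS on the other side a shared site (6.11 and 5.35). Lost, partly bound and mutant-bound sites of Btg2 were thus found within 10 kb of each other.

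Other genes with at least 3 of the sites were Plec (5), C77080 (4), and Impdh1, Irf2bpl and Zfp217 (3 each). At Plec, which encodes the cytoskeletal linker plectin, 4 sites in its introns had wild type values of 6.31, 5.79, 4.93 and 4.82 and mutant values of 3.18, 3.29, 2.31 and 3.01. The fifth lay in a UTR of Parp10 (5.02 and 3.10). A mutant site (wild type 2.23, mutant 6.18) had its start fewer than 100 bp beyond the end of the fourth. At Impdh1, the gene of an enzyme of guanine nucleotide synthesis, the 3 sites had 5.0, 6.74 and 4.55 for the wild type and 3.05, 3.51 and 2.73 for the mutant. At Zfp217 the 3 sites were intergenic and lay 41656 to 62996 bp from the TSS (wild type 4.5, 6.19 and 5.02, mutant 3.84, 3.91 and 2.51), and each held the words GGGAGGGG and GGGTGGGG. At Irf2bpl the sites were intergenic (wild type 4.74, 5.91 and 6.20, mutant 2.16, 2.88 and 2.38) and none held a motif match. At C77080 they had 6.08, 5.61, 4.67 and 4.72 for the wild type and 2.23, 3.58, 3.71 and 3.10 for the mutant, and 3 sites bound more by the mutant lay in the same gene.

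The genes closest to the sites were mostly genes for which new RNA was measured. Of the 672 closest genes, 559 (83.2%, 80.2 to 85.8) were listed in the 4sU-RNA table, against 80% (76.8 to 82.8) for lost, 86.9% (84.3 to 89.1) for shared and 80.1% for all sites. Their median of the authors' mean log2 CPM was 5.91, against 5.97 for lost and 6.32 for shared sites. It was near the 5.93 for the closest genes of all sites, and the median of all listed genes was 5.27. Where the TSS was within 1 kb, 90.5% of 369 genes were listed (87.1 to 93.1), with a median of 5.72, against 87.6% (82.5 to 91.3) and 5.64 for lost, 95.7% (93.2 to 97.3) and 6.15 for shared and 91.9% and 5.98 for all sites. These means run over libraries with and without the mutant protein and give a level, not a response.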

How the data were processed

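The ChIP-seq reads had been mapped to mm9 with TMAP by the authors, with duplicate and multi-mapped reads removed, sites called with MACS2 and GEM and quantified with DiffBind. The authors deposited the concentrations as log2 of the mean normalized read count, 1 per protein and site, with no value per library and no library depth. The deposited 4sU-RNA tables (TopHat2 2.0.10 and limma by the submitters' processing notes) gave the authors' mean log2 CPM per gene. Columns with the authors' fold changes, p-values and false discovery rates, for binding and for expression, were not used.

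The sites, lists and comparisons were chosen with earlier results of these data known. The named sites were the 5 highest wild type values, the 5 largest and 5 smallest differences, the sites at each limit, sites closest to a list gene and genes with at least 3 sites. A marker gene and a list gene with 1 site are not reported here. Sequence was read from the NCBIM37 (mm9) genome with pysam 0.24.0, and features from GENCODE M1, at the midpoint of each site. Motif matches were counted within 50 bp and GATA words within 150 bp of it, and the search was tested on simulated sequences. Of 3670 closest genes, 2814 were matched to the gene table by symbol and 126 by Entrez identifier through synonyms in RefSeq (GRCm38, names only). No model was fitted; shares carry 95% Wilson intervals from scipy 1.17.1. Limits, windows and distances were varied as given in the closing section.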

Additional observations from a re-analysis of the deposited data

How the results depend on the processing

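The number of sites was 718 with limits of 1.5 and 3.5, 678 with limits of 2.5 and 4.5 and 676 with 1 site per run under 10 kb, and in these settings the motif, promoter and GATA shares stayed within the intervals of the reported shares. A difference of at least 1, an alternative chosen after seeing the data, left 694 sites with the same outcome. Shares depended on the window. The pyrimidine share was 47.6% within 25 bp, 71.2% within 100 bp, 78.5% over the whole site and 64.4% with any base at position 7, and the purine share was 11.9%, 28.7%, 37.8% and 30.7% in the same settings. Over the whole site the pyrimidine shares of the 722, lost and shared sites were 78.5%, 77.6% and 72.5%, so that the gap to the shared sites was narrower than within 50 bp, while the purine shares were 37.8%, 23.5% and 65.2%. Shared sites were wider, with a median of 397 bp against 326 bp. The promoter share was 45.4% within 500 bp and 58.6% within 2 kb of a TSS, the GATA share was 11.4% within 50 bp, and 87.4% and 90.5% of closest genes were listed when only those within 10 kb and 1 kb were taken. T at position 7, with alternatives chosen after seeing the data, made up between 27.2% and 31.6% of pyrimidine matches under all 7 of them. No paired analysis was possible because the results come from no test and the site table has no values per replicate. If a step is 1 read and no input reads were subtracted, which was not tested, the mutant values rested on few reads. This would limit the placing of single sites near a limit.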

Other observations

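The base at position 1 of the pyrimidine matches, which the comparisons above did not use, was G in 45.7% of 715 matches at the 722 sites, against 38.3% of 843 at lost and 52.6% of 464 at shared sites. T was found there in 19.7%, 28.5% and 14.7%, so that the 722 sites lay between the other wild type sites for G and T. They did not for A (25.7%, against 21.4% of lost and 22% of shared) or for C (8.81%, against 11.9% and 10.8%). These bases were looked at after the data were seen, and no test was run.

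The sites were spread over all chromosomes listed, with between 8% of the sites on chromosome X and 17.2% of those on chromosome 8 belonging to the 722. Chromosome 11 held the most, with 67. The lowest wild type value of the table, -0.09, was shared by 1424 sites and the lowest mutant value, -0.38, by 147, none of which are among the 722.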
